A study of Mus musculus with 16 samples.

Results

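The genes described here are nuclear genes named for proteins of the mitochondrial ribosome. They were taken as every gene whose symbol starts with Mrpl or Mrps followed by a digit, with the brightest probe set kept for each gene. The rule found 77 of the 19531 genes with a named probe set, 48 with Mrpl symbols and 29 with Mrps symbols, and all 77 were bright enough to be among the 10689 genes tested. No member had an array value at or below the background of 5.98 on the log2 scale, which was taken as the highest signal of a Y-linked gene on a female array, and the lowest value of any member was 6.23. A gene of the same family, Mrpl53, shares its probe set with another gene and was not analysed here.

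Expression was measured on 16 arrays of sorted double-negative (DN) thymocytes, the T cell precursors without CD4 and CD8, from mice 4 weeks old. The 8 groups held 2 arrays each and crossed strain, T cell receptor genotype and stage. The strains were NOD, which develops autoimmune diabetes, and B6g7, a C57BL/6 strain with the NOD MHC haplotype H2g7. DN2-3 cells were sorted as CD4-CD8-Lin-CD25+ and DN4 cells as CD4-CD8-Lin-CD44-CD25-, both after CD4- and CD8-bearing cells had been killed with antibody and complement. The groups named B6g7 and NOD had no receptor transgene and a polyclonal repertoire, and all their arrays came from female mice. The groups named BDC/B6g7 and BDC/NOD carried the BDC2.5 transgene, the rearranged receptor of a diabetogenic CD4 T cell clone, and each held 1 male and 1 female array, so that sex and genotype were partly confounded. Whether replicates are separate animals is not stated in the labels, and p-values therefore reflect the spread between these samples alone, which may be technical.

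Mitochondrial ribosomes translate the few proteins encoded in mitochondrial DNA, which are subunits of the respiratory chain and the ATP synthase. Their RNA comes from the mitochondrial genome, while all of their proteins are encoded in the nucleus, made in the cytosol and imported. In thymocytes the DN3 to DN4 transition follows signalling through the pre-T cell receptor and is a time of proliferation, and a rearranged receptor transgene is expressed before the normal receptor would be.

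One array, NOD DN2-3 replicate 1, had a narrower spread of intensities than the rest. Its quartile ratio (upper over lower) was 6.82, the B6g7 DN4 arrays came next with 7.60 and 7.46, and the remaining 13 arrays ran from 8.30 to 10.3. The replicates of NOD DN2-3 were 0.242 log2 units apart (median over genes, absolute), while those of the other groups were 0.0856 to 0.136 apart. Over all 19531 genes the replicates of a group correlated with r from 0.986 to 0.997. Of 13 listed thymocyte genes on the array, all were above background in every group apart from Rag2, a recombinase subunit, which was not above it in BDC/B6g7 at either stage. Il2ra, which encodes the sorting antigen CD25, had group means of 12.4 to 13.2 in DN2-3 and 9.10 to 10.4 in DN4. Of listed markers of other cell types, 3 to 4 of 7 B cell genes, 4 to 7 of 13 myeloid genes, 2 of 8 NK cell genes, 8 to 9 of 10 stromal genes and 3 to 4 of 4 erythroid genes were above background on both arrays of a group. Those above it included Cd79b, Pax5, Cd22, Lyz2, Tyrobp, Fcer1g, Prf1 and Tbx21 in at least some groups. Cd79a, Ms4a1, Csf1r, Itgam, Cd14, Ncr1 and Klrb1c were not above it in any group. Summed over its list the intensity was 686 to 1125 for B cell, 769 to 1256 for myeloid, 358.5 to 572.1 for NK cell, 1518 to 2643 for stromal and 306.5 to 417.7 for erythroid genes, and in BDC/B6g7 DN4 it was 949 to 1001, 808 to 854, 443 to 466, 2635 to 2643 and 339 to 352. The brightest stromal gene was Pecam1, with a group mean of 10.71 in BDC/B6g7 DN4 and 9.16 to 10.29 in the other groups. Apart from Pecam1 and Psmb11 (6.64), no stromal gene had its highest group mean in BDC/B6g7 DN4. The part of other cell types in the results was not tested.

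The mitochondrial ribosomal genes moved largely as a block across the 8 groups. For each array the median over the 77 members of the log2 value minus the gene's mean over all arrays was taken. This median was -0.50 and -0.54 in BDC/B6g7 DN4 and 0.33 and 0.35 in NOD DN4, the lowest and highest groups. It was 0.25 and 0.10 in B6g7 DN4, between 0.12 and 0.18 in the 4 arrays of BDC DN2-3, between -0.08 and -0.03 in BDC/NOD DN4, and between -0.16 and -0.07 in the 4 arrays of non-transgenic DN2-3. The B6g7 DN4 arrays thus overlapped those of the BDC DN2-3 groups, and BDC/B6g7 DN4 lay below every other group. Of the 77 members, 66 had their lowest group mean in BDC/B6g7 DN4, against 30.8% of all genes tested, and 41 had their highest in NOD DN4, against 22.2%. In these cell populations fewer cells of a type and less RNA per cell cannot be told apart.

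**Figure D1:**
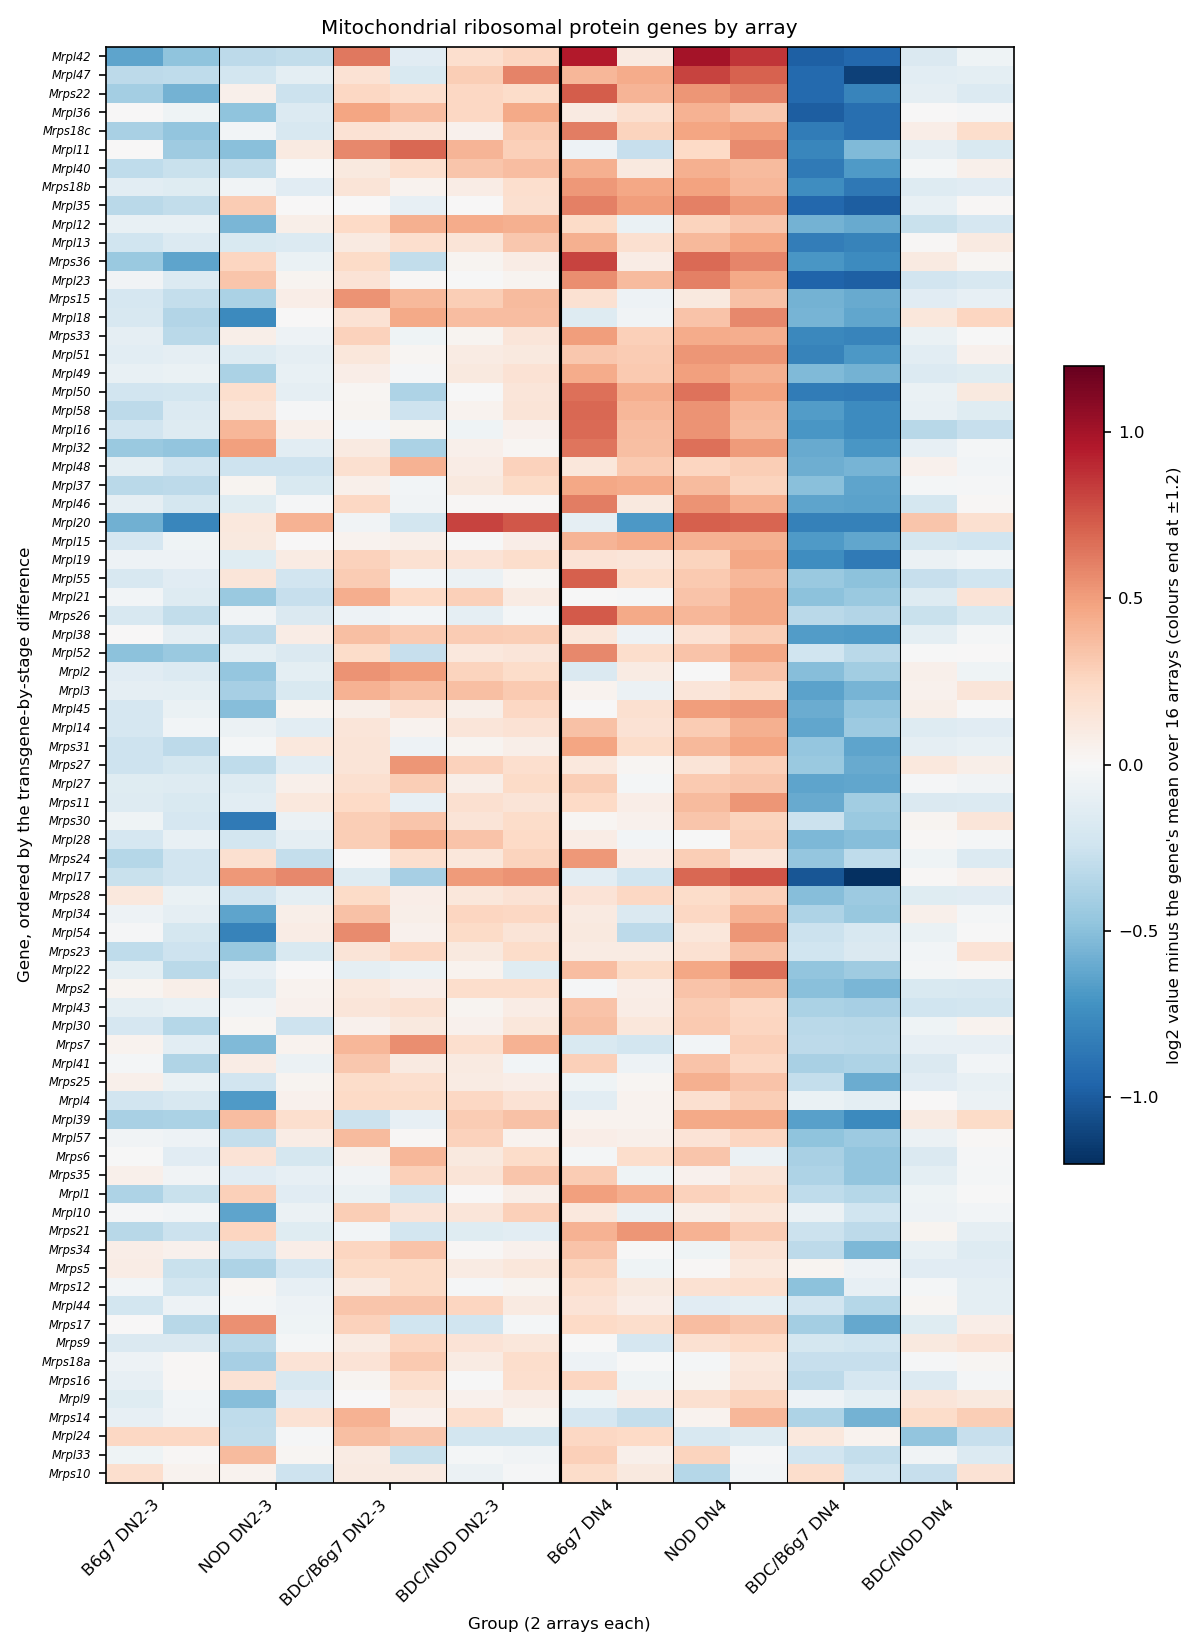
Log2 value minus the gene's mean over the 16 arrays for each of the 77 genes (lines of the plot, ordered by how far the transgene difference changed between stages) in each array (columns, 2 per group; the thick line separates DN2-3 from DN4). BDC/B6g7 DN4 is blue for most genes and NOD DN4 red, and the genes with the smallest such difference, Mrps10 and Mrpl33, are at the bottom.

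**Figure D2:**
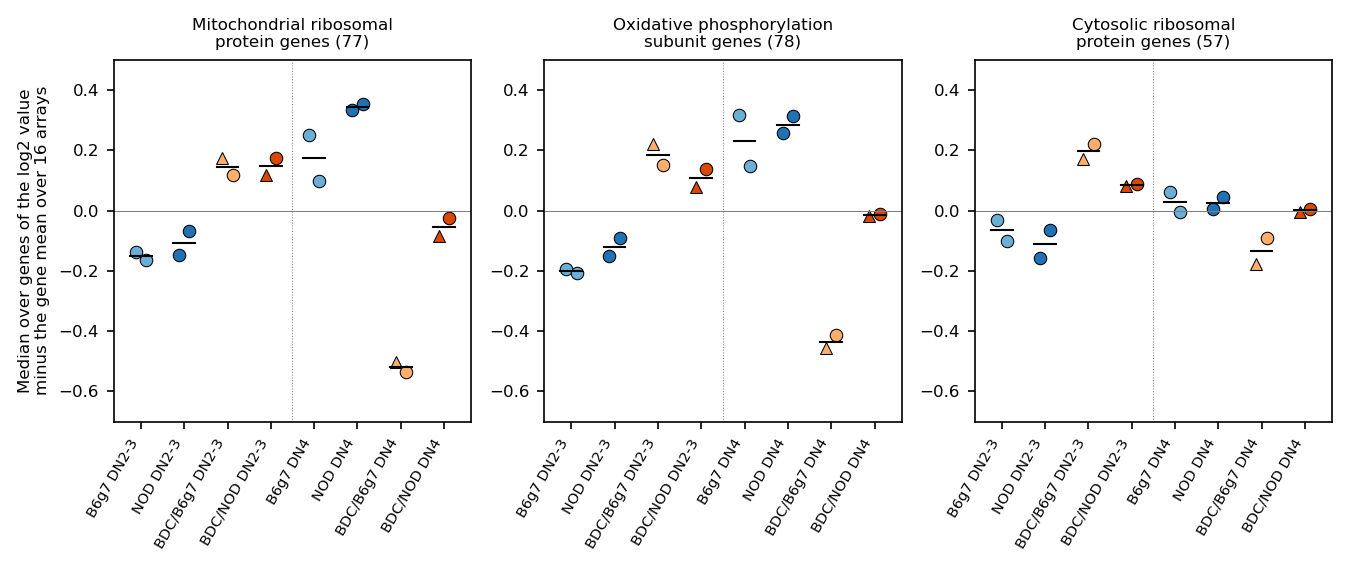
Median over the genes of each list of the log2 value minus the gene's mean, 1 point per array (circles female, triangles male), with a bar at the group mean. The mitochondrial ribosomal genes run from -0.54 to 0.35, the oxidative phosphorylation genes follow a similar order of groups, and the cytosolic ribosomal genes span a narrower range.

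The spread within groups was small beside these shifts. The median within-group SD of a member was 0.126 log2 units, against 0.121 over all genes tested, and the median range of its 8 group means was 0.93, against 0.71. The range was widest for Mrpl42 (1.89), Mrpl17 (1.84) and Mrpl47 (1.78) and narrowest for Mrps10 (0.36).

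RefSeq promoters (GRCm38.p6, 250 bases before to 50 after the first listed start) were found for 68 of the 77 members. The 120 bases before the start are shown for 5 genes: Mrpl42, Mrpl47 and Mrps22, with the largest differences between transgene effects at the 2 stages, Mrps10, which was called in none of the 11 comparisons, and Mrpl17, with a large difference between strains. They are written 5′ to 3′ on the gene's strand, with capitals at the letters of a searched motif on either strand. They lie at chr10:95501950-95502069, chr3:32736756-32736875, chr9:98601680-98601799 and chr7:105811088-105811207 on the minus strand and at chr17:47369077-47369196 on the plus strand.
Mrpl42: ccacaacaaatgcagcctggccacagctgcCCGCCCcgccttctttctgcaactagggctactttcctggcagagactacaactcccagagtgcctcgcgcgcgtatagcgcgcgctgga
Mrpl47: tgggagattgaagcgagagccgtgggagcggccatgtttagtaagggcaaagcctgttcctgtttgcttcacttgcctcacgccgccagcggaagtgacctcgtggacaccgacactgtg
Mrps22: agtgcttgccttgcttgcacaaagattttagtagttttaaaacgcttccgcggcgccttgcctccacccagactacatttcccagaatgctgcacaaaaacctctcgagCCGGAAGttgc
Mrps10: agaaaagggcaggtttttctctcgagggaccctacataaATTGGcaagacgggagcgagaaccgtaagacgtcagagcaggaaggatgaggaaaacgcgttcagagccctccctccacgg
Mrpl17: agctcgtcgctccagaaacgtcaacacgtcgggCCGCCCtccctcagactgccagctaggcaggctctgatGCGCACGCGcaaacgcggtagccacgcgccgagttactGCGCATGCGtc
The capitals mark an Sp1 motif in Mrpl42 and in Mrpl17, an ETS motif in Mrps22, a CCAAT motif on the opposite strand in Mrps10, and a pair of NRF1 motifs in Mrpl17, while the stretch of Mrpl47 holds none.

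The motifs were searched on both strands of the 300-base windows, with overlaps kept. GCGCANGCG, the core site of the nuclear respiratory factor NRF1, was in 16 of 68 member promoters (23.5%) and in 6.5% of all 27025 promoters. CCGGAAG, an ETS-family site of the kind bound by GABP, was in 24 (35.3% against 9.1%), and AAGATGGCG, a YY1 site, in 8 (11.8% against 1.5%). GGGCGG, an Sp1 site, was in 34, against 35.9% of all promoters. CACGTG, the E-box bound by Myc and Max, was in 5 (7.4% against 7.2%) and CCAAT in 26 (38.2% against 37.9%), shares near those of all promoters. The members with an NRF1 motif had a median difference between the transgene effects at the 2 stages of -0.72 and those without one of -0.90. For the ETS motif the medians were -0.87 and -0.88, for Sp1 -0.92 and -0.84 and for YY1 -0.93 and -0.87. For the E-box they were -0.98 and -0.85, and for CCAAT -0.89 and -0.87. At single stages some were further apart, such as Sp1 (-0.65 and -0.45) and CCAAT (-0.45 and -0.56) in DN4. For the E-box, in 5 members, they were 0.53 and 0.24 in DN2-3. None of these contrasts was tested. The motif matches are descriptions of letters in a window.

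In DN2-3 cells the question was whether an early rearranged receptor went with another level of these genes. Averaged over both strains, 46 of the 77 members were higher in BDC than in non-transgenic DN2-3 cells (limma, Benjamini-Hochberg adjusted p under 0.05), where 29.8% of all genes tested were higher, and none was lower, where 19.3% were lower. Below that, 31 members were not called. The median log2 difference over the members was 0.25, against 0.05 over all genes, and 72 of 77 had a positive sign. In 44 members the arrays of the BDC group lay above those of the non-transgenic group in both strains, as for 28.7% of all genes, and in 0 below them in both, against 17.7%. The 12 female arrays alone gave 20 calls, all higher. Without NOD DN2-3 replicate 1, 48 were called higher.

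Mrpl11, which belongs to the stalk base where translation factors bind, had the largest difference in DN2-3. Its log2 values were 7.58 and 7.15 in B6g7, 7.07 and 7.68 in NOD, 8.15 and 8.27 in BDC/B6g7 and 7.98 and 7.86 in BDC/NOD, so that all BDC arrays lay above all non-transgenic ones. The difference was 0.69 ± 0.13 (SE, 2 arrays a group), or 1.62-fold (limma adjusted p = 0.00099). Mrpl12, the stalk protein itself, was 8.90 and 8.90 in B6g7, 8.43 and 9.05 in NOD, 9.23 and 9.41 in BDC/B6g7 and 9.43 and 9.41 in BDC/NOD, again without overlap, and was 0.55 ± 0.11 higher. The third stalk gene, Mrpl10, was 0.41 ± 0.10 higher.

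Of 5 genes for the neighbourhood of the peptidyl transferase centre, 4 were called higher. Mrpl2 was higher by 0.60 ± 0.10, Mrpl3 by 0.56 ± 0.07, and Mrpl4, whose product lines the start of the exit tunnel, by 0.49 ± 0.12. Mrpl16 was at -0.01 ± 0.09 and was not called. Of the other members with large differences, Mrpl42 was higher by 0.67 ± 0.17, Mrpl18 of the central protuberance by 0.67 ± 0.13, Mrpl36 by 0.56 ± 0.08 and Mrpl20 by 0.53 ± 0.11. Without the 4 male arrays the calls of Mrpl42 (0.50, adjusted p = 0.115), Mrpl10 (0.42, adjusted p = 0.0854), Mrpl4 (0.47, adjusted p = 0.0998) and Mrps30 (0.57, adjusted p = 0.0649) were lost at similar sizes. In the small subunit Mrps15, near the platform, was higher by 0.60 ± 0.10 and Mrps7, of the head, by 0.54 ± 0.11. Mrps30, named for the small subunit but found in the large one, was higher by 0.54 ± 0.13. The smallest differences were those of Mrps21 (-0.01), Mrpl16 (-0.01) and Mrpl23 (0.01).

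In DN4 cells the direction was the opposite. Averaged over strains, 66 of the 77 members were lower in BDC than in non-transgenic DN4 cells, where 30.8% of all genes tested were lower, and none was higher, where 28.7% were higher. The median was -0.53, against -0.03 over all genes, and 0 of 77 members had a positive sign. In 65 members the arrays of the BDC group lay below those of the non-transgenic group in both strains, against 31.1% of all genes, and in 0 above them in both, against 26.5%. Without the 4 male arrays 55 members were lower, and without B6g7 DN4 replicate 1 or 2, the arrays with narrow quartiles, 61 and 63.

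Mrpl42, a protein of the large subunit without a bacterial counterpart, differed most. Its log2 values in DN4 were 8.35 and 7.50 in B6g7, 8.40 and 8.25 in NOD, 6.41 and 6.46 in BDC/B6g7 and 7.22 and 7.35 in BDC/NOD. The transgenic arrays were all lower than the non-transgenic ones, and those of BDC/B6g7 were the lowest. The difference was -1.27 ± 0.17, or 2.40-fold lower (adjusted p = 2.6e-05). Mrpl47, at the exit of the tunnel, had 8.77 and 8.81 in B6g7, 9.18 and 9.08 in NOD, 7.44 and 7.25 in BDC/B6g7 and 8.25 and 8.25 in BDC/NOD, and was 2.24-fold lower (-1.16 ± 0.09, adjusted p = 1.5e-07). Mrps22, a small-subunit protein without a bacterial counterpart, had 9.86 and 9.54, 9.67 and 9.73, 8.21 and 8.34, and 9.03 and 8.97 in the same order of groups, and was 2.09-fold lower (-1.06 ± 0.09). None of these 3 genes overlapped between genotypes in either strain.

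Mrpl23, also at the tunnel exit, was 2.12-fold lower in DN4 (-1.09 ± 0.08), with 10.70 and 10.52 in B6g7, 10.74 and 10.59 in NOD, 9.18 and 9.16 in BDC/B6g7 and 9.91 and 9.95 in BDC/NOD. Mrpl35 was lower by 1.06 ± 0.08 and Mrpl16 by 1.01 ± 0.09, whereas their DN2-3 differences of 0.10 and -0.01 were not called. Mrpl50 fell by 0.97, Mrps18b by 0.94, Mrpl58, a peptidyl-tRNA hydrolase built into the large subunit, by 0.92 and Mrpl32 by 0.90. The 11 members not called were Mrps30 (-0.30), Mrpl54 (-0.25), Mrps7 (-0.17), Mrpl4 (-0.17), Mrpl10 (-0.17), Mrps5 (-0.16), Mrps18a (-0.15), Mrpl9 (-0.10), Mrps9 (-0.10), Mrps14 (-0.09) and Mrps10 (-0.02). Mrps10, a protein of the small-subunit head, had values of 7.50 and 7.39, 6.93 and 7.24, 7.48 and 7.04, and 6.99 and 7.45 in B6g7, NOD, BDC/B6g7 and BDC/NOD, which overlapped between genotypes. The 95% interval of its difference ran from -0.28 to 0.24.

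**Figure D3:**
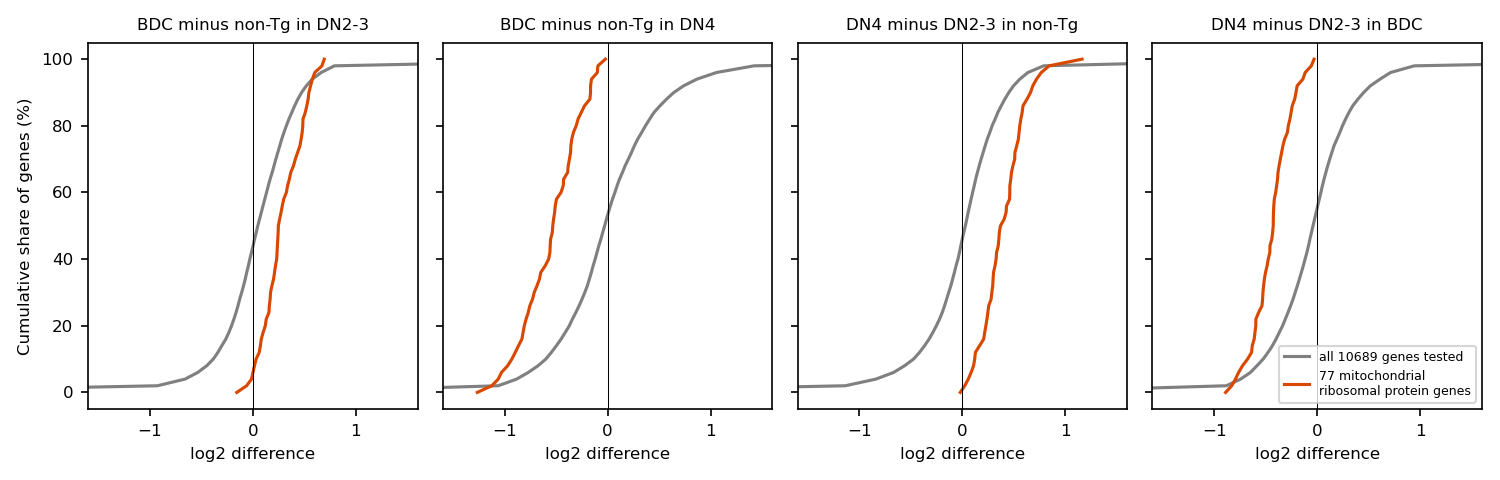
Cumulative share of genes (percent) against the log2 difference for the 77 members (orange) and all genes tested (grey) in 4 comparisons. At its median the member curve lies to the right of all genes for BDC minus non-transgenic in DN2-3 and for DN4 minus DN2-3 in non-transgenic cells, and to the left in the other panels.

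Seen along the stages, the same arrays gave the following values; each stage comparison shares its arrays with the transgene comparisons. In non-transgenic cells 60 members were higher in DN4 than in DN2-3 (26.6% of all genes) and 0 lower (21.5%), with a median of 0.37 against 0.03 over all genes and a positive sign in 75 of 77. In BDC cells 64 were lower in DN4 (29.1% of all genes) and 0 higher (22.0%), with a median of -0.43 against -0.04. In both strains the DN4 arrays lay above the DN2-3 arrays for 48 members in non-transgenic cells (21.9% of all genes) and below them for 0 (14.7%). In BDC cells they lay below for 61 members (27.7%) and above for 0 (24.3%). These comparisons had 46 and 37 calls on the female arrays alone. In non-transgenic cells Mrpl42 was higher in DN4 by 1.16 ± 0.17, Mrps22 by 0.86 ± 0.09, Mrpl47 by 0.83 ± 0.09, Mrps36 by 0.77 ± 0.15 and Mrps18c by 0.74 ± 0.09. In BDC cells the largest falls, averaged over both strains, were those of Mrpl11 (-0.89 ± 0.13), Mrpl36 (-0.87 ± 0.08), Mrpl47 (-0.80 ± 0.09), Mrpl12 (-0.80 ± 0.11) and Mrpl42 (-0.78 ± 0.17). The size differed by strain. The group mean of the array medians went from 0.15 in DN2-3 to -0.52 in DN4 in BDC/B6g7, and from 0.15 to -0.05 in BDC/NOD. Mrpl36 went from 10.10 to 8.73 in BDC/B6g7 and from 10.03 to 9.67 in BDC/NOD. With the stages paired by replicate number 63 members were higher in non-transgenic and 69 lower in BDC DN4 cells. Calls over all genes, in either direction, also rose in that fit, from 5137 to 5764 and from 5460 to 6071. The fall of Mrpl42 was not called without the male arrays (-0.56, adjusted p = 0.135).

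The difference between the transgene effects at the 2 stages was tested as an interaction. It was negative and called in 72 of 77 members, against 31.5% of all genes, and positive and called in none, against 26.3%, with a median of -0.88 against -0.04. It was called in 61 members without the 4 male arrays, in 73 without NOD DN2-3 replicate 1 and in 74 with the stages paired by replicate number. The largest were Mrpl42 (-1.94 ± 0.24), Mrpl47 (-1.63 ± 0.13), Mrps22 (-1.59 ± 0.12), Mrpl36 (-1.30 ± 0.11) and Mrps18c (-1.27 ± 0.12), and the 5 members not called were Mrps17 (-0.46), Mrps14 (-0.34), Mrpl24 (-0.19), Mrpl33 (-0.17) and Mrps10 (-0.05). With the stages paired by replicate number, calls of this interaction over all genes, in either direction, also rose, from 6177 to 6711. The transgene effects at the 2 stages were measured on separate arrays. Of the 77 members, 37 (48.1%) were called higher in DN2-3 and also lower in DN4, against 13.0% of all genes tested. These were 37 of the 46 members higher in DN2-3 and 37 of the 66 lower in DN4. Over all genes 1387 had both calls, of 3180 higher in DN2-3 and 3295 lower in DN4. Across the 77 members the signed effects correlated weakly and positively (Pearson r = 0.175, Spearman rho = 0.28), so that a larger rise in DN2-3 went, weakly, with a smaller fall in DN4. This describes genes that share the same arrays.

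**Figure D4:**
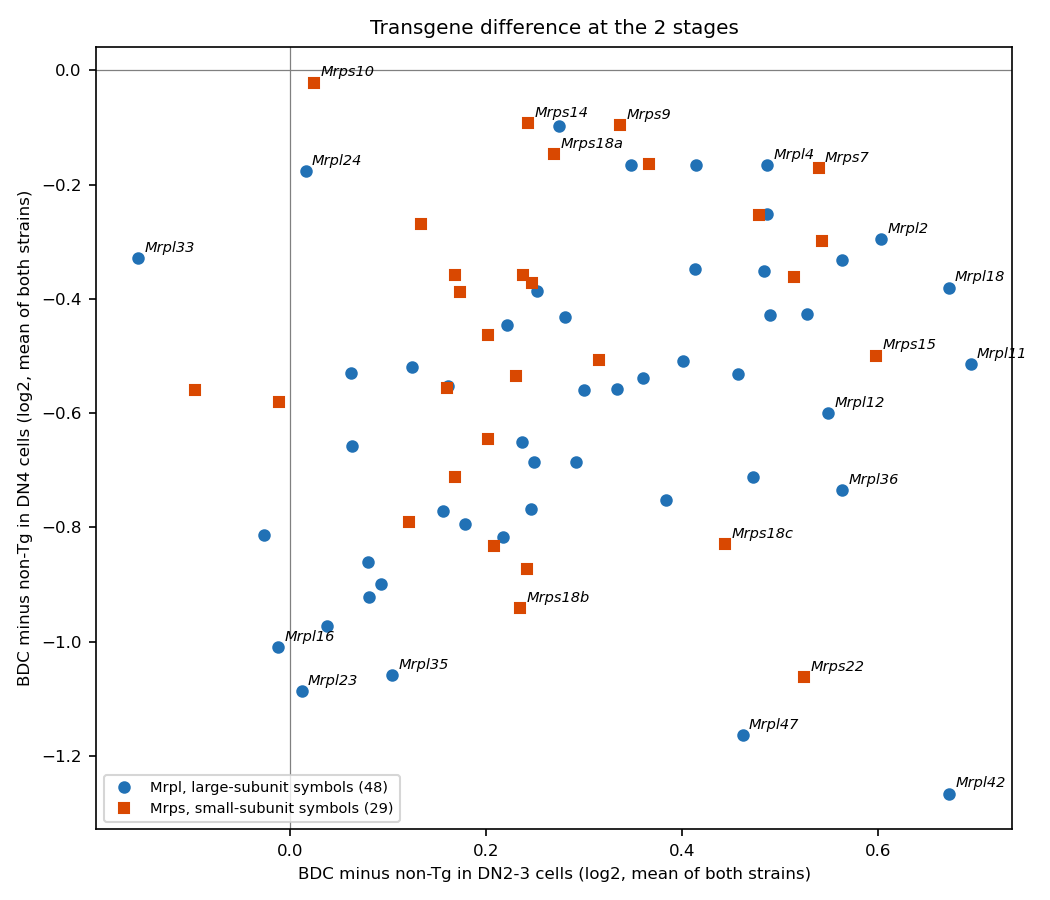
Log2 difference between BDC and non-transgenic cells in DN2-3 (horizontal) and DN4 (vertical), mean of both strains, 1 point per gene (circles Mrpl, squares Mrps). All 77 points lie below 0 on the vertical axis and 72 lie above 0 on the horizontal axis.

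Grouped by the place of the protein in the ribosome, the median of every group followed the common direction, with differences in size. These groups were drawn up after the values had been seen, and are described by counts alone. Over all genes tested 29.8% were higher in DN2-3 and 30.8% lower in DN4, and groups this small cannot be ranked against those shares. All 3 stalk genes were higher in DN2-3 (median 0.55) and 2 were lower in DN4 (-0.51). Of 5 genes near the peptidyl transferase centre, 4 were higher in DN2-3 and 4 lower in DN4, with medians of 0.49 and -0.33. All 7 genes of the tunnel exit were lower in DN4 (median -0.56) and 3 were higher in DN2-3 (0.12). The 5 genes of the central protuberance, Mrpl18, Mrpl38, Mrpl40, Mrpl46 and Mrpl48, were all lower in DN4 (-0.53), and 4 were higher in DN2-3. Of 14 small-subunit genes with bacterial relatives 9 were lower in DN4 (median -0.37), and of 9 without them, which include Mrps22, Mrps27 and Mrps34, all 9 were lower (-0.46). In DN2-3, 6 of the 14 (median 0.22) and 4 of the 9 (0.21) were higher. By symbol, 44 of 48 Mrpl and 22 of 29 Mrps genes were lower in DN4, and 31 and 15 were higher in DN2-3; the difference between them was not tested.

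Paralogs were unequal. Mrps18a, Mrps18b and Mrps18c descend from the family of bacterial S18, and the product of Mrps18a lies in the large subunit. In DN4 Mrps18a was 9.39 and 9.45 in B6g7, 9.43 and 9.58 in NOD, 9.18 and 9.17 in BDC/B6g7 and 9.44 and 9.48 in BDC/NOD, a difference of -0.15 ± 0.10 (adjusted p = 0.22). Mrps18b had 10.47 and 10.42, 10.43 and 10.35, 9.20 and 9.09, and 9.79 and 9.82 in the same order and was lower by 0.94 ± 0.06 (adjusted p = 3.6e-08). Mrps18c had 9.77 and 9.42, 9.62 and 9.65, 8.31 and 8.25, and 9.23 and 9.36, and was lower by 0.83 ± 0.09. The BDC arrays did not overlap the non-transgenic ones of the same strain in Mrps18b and Mrps18c, while in NOD the Mrps18a arrays did.

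Other members were lower in DN4 by differing amounts. Mrpl41 fell by 0.45 in DN4, Mrpl28 by 0.35, Mrpl45, a membrane anchor of the ribosome, by 0.56, and Mrpl52 by 0.54. Averaged over both strains Mrpl44 fell by 0.17 there (adjusted p = 0.0435), a call lost without any one of BDC/B6g7 DN2-3 replicate 1 or 2, B6g7 DN4 replicate 1, NOD DN4 replicate 1 or 2, and replicate 2 of BDC/B6g7 DN4 or BDC/NOD DN4 (adjusted p from 0.0522 to 0.16). The DN4 group mean of Mrpl44 was 7.32 in B6g7 and 6.91 in BDC/B6g7, but 7.07 in NOD and 7.15 in BDC/NOD. Its lower level with the transgene was thus seen in B6g7 alone. Mrps12, a protein of the decoding centre, fell by 0.36, Mrps2 by 0.56, Mrps27 by 0.36 and Mrps34 by 0.39. Mrps36, named for the small subunit but a protein of the 2-oxoglutarate dehydrogenase complex, fell by 0.87.

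NOD and B6g7 were compared within each genotype and stage and on average. On average over the 4 contexts 38 members were higher in NOD (26.8% of all genes) and 1, Mrpl24, was lower (14.9%), with a median of 0.16 against 0.04. The count differed by context. In BDC DN4 cells 49 were higher (25.8%) and 1 lower (15.3%), with a median of 0.44 against 0.05. There 48 of 78 oxidative phosphorylation genes were higher and 2 lower (median 0.42), and all 29 cell cycle genes were higher (1.22). Of 57 cytosolic ribosomal genes 7 were higher (0.14). In non-transgenic DN2-3 cells 7 members were higher (5.0%) and 1 lower (5.58%), in BDC DN2-3 cells 4 higher (3.53%) and 1 lower (5.66%), and in non-transgenic DN4 cells 6 higher (14.0%) and 1 lower (4.75%). In BDC DN4 the NOD arrays lay above the B6g7 arrays in 73 members (45.5% of all genes) and below them in Mrps5 and Mrpl24 (32.3%). In non-transgenic DN2-3 they lay above in 27 (22.8%) and below in 8 (24.0%), in BDC DN2-3 above in 12 (27.7%) and below in 15 (28.4%), and in non-transgenic DN4 above in 31 (50.9%) and below in 6 (18.8%).

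Some of these counts changed when single arrays were left out. In non-transgenic DN2-3 the 8 calls became 35 (19 higher and 16 lower) without NOD DN2-3 replicate 2, 3 without NOD DN2-3 replicate 1 or either B6g7 DN2-3 array, and 5 without either BDC/NOD DN2-3 array or any one of the NOD DN4, BDC/B6g7 DN4 and BDC/NOD DN4 arrays. In non-transgenic DN4 the 7 calls became 23 and 22 without NOD DN2-3 replicate 1 and 2, and 2 without B6g7 DN4 replicate 1 or either NOD DN4 array. In that comparison all genes had a median of 0.13, and the member median of 0.12 became -0.03 when the arrays were quantile normalized again and 0.19 when each was centred. On the female arrays alone 21 members were called on average and 19 in BDC DN4.

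A few members differed by strain in every context. Mrpl20, a large-subunit protein that binds the ribosomal RNA early in assembly, was higher in NOD by 0.95 ± 0.16 in non-transgenic DN2-3, 0.91 ± 0.16 in BDC DN2-3, 1.10 ± 0.16 in non-transgenic DN4 and 1.07 ± 0.16 in BDC DN4. Its DN2-3 values were 7.94 and 7.73 in B6g7, 8.64 and 8.93 in NOD, 8.47 and 8.29 in BDC/B6g7 and 9.33 and 9.26 in BDC/NOD. In DN4 they were 8.41 and 7.82, 9.23 and 9.21, 7.70 and 7.71, and 8.84 and 8.71. Mrpl17 was higher in NOD by 0.80 ± 0.10, 0.81 ± 0.10, 0.91 ± 0.10 and 1.15 ± 0.10 in the same order of contexts. Its NOD arrays lay between 9.13 and 9.87 and its B6g7 arrays between 7.91 and 9.0, without overlap across the whole set. Mrpl39 was higher by 0.67, 0.51, 0.41 and 0.88 (each SE 0.09), and Mrpl24 was lower by 0.40 to 0.56, at -0.40, -0.56, -0.42 and -0.46 (each SE 0.10). Calls in all 4 contexts, in the higher direction for Mrpl20, Mrpl17 and Mrpl39, were made for 1.09% of all genes, and in the lower direction, for Mrpl24, for 1.13%. NOD and B6g7 arrays did not overlap in any context for these 4 and for Mrpl47 (5.69% of all genes higher and 4.08% lower). No second probe set was available for Mrpl20, Mrpl17, Mrpl39 or Mrpl24, so their strain differences rest on the kept probe set alone. Several single-context calls were lost when 1 array was left out, in some cases any one of several arrays. In non-transgenic DN2-3 the call of Mrpl24 was lost without NOD DN2-3 replicate 1 (-0.27, adjusted p = 0.136) and without B6g7 DN2-3 replicate 1 or 2 (adjusted p = 0.145 and 0.112). In non-transgenic DN4 the calls of Mrpl24 and Mrpl39 were lost without B6g7 DN4 replicate 1 (adjusted p = 0.0802 and 0.0643), without NOD DN4 replicate 1 (0.0701 and 0.0547) and without replicate 2 (0.0834 and 0.0815). Without the 4 male arrays Mrpl24 was called in no single context (adjusted p from 0.0875 to 0.243), Mrpl39 was not called in BDC DN2-3 or non-transgenic DN4 (0.275 and 0.0708), and Mrpl20 was not called in BDC DN2-3 (0.206).

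Of the other members, Mrpl47 was higher in NOD by 0.46 ± 0.06 on average, Mrps36 by 0.42 ± 0.10, Mrpl35 by 0.39 ± 0.05, Mrpl32 by 0.37 ± 0.09, Mrpl42 by 0.37 ± 0.12 and Mrpl50 by 0.35 ± 0.07. A dim second probe set of Mrpl47 was at -0.15 on average, the opposite sign. The smallest average differences were those of Mrps26 (0.02), Mrpl55 (0.02) and Mrpl44 (-0.02). In non-transgenic DN2-3 the other calls were Mrpl32 (0.64), Mrpl35 (0.46), Mrpl16 (0.42) and Mrpl1 (0.40), and in non-transgenic DN4 they were Mrpl21 (0.41), Mrps25 (0.39) and Mrps2 (0.33). In BDC DN2-3 Mrpl47 was at 0.45 (adjusted p = 0.0393). In BDC DN4 large differences were also those of Mrpl36 (0.94 ± 0.11), Mrpl35 (0.93 ± 0.11), Mrpl47 (0.90 ± 0.13), Mrpl13 (0.88 ± 0.10) and Mrpl50 (0.87 ± 0.14), while Mrps10 was at -0.04 and Mrpl4 at 0.07.

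**Figure D5:**
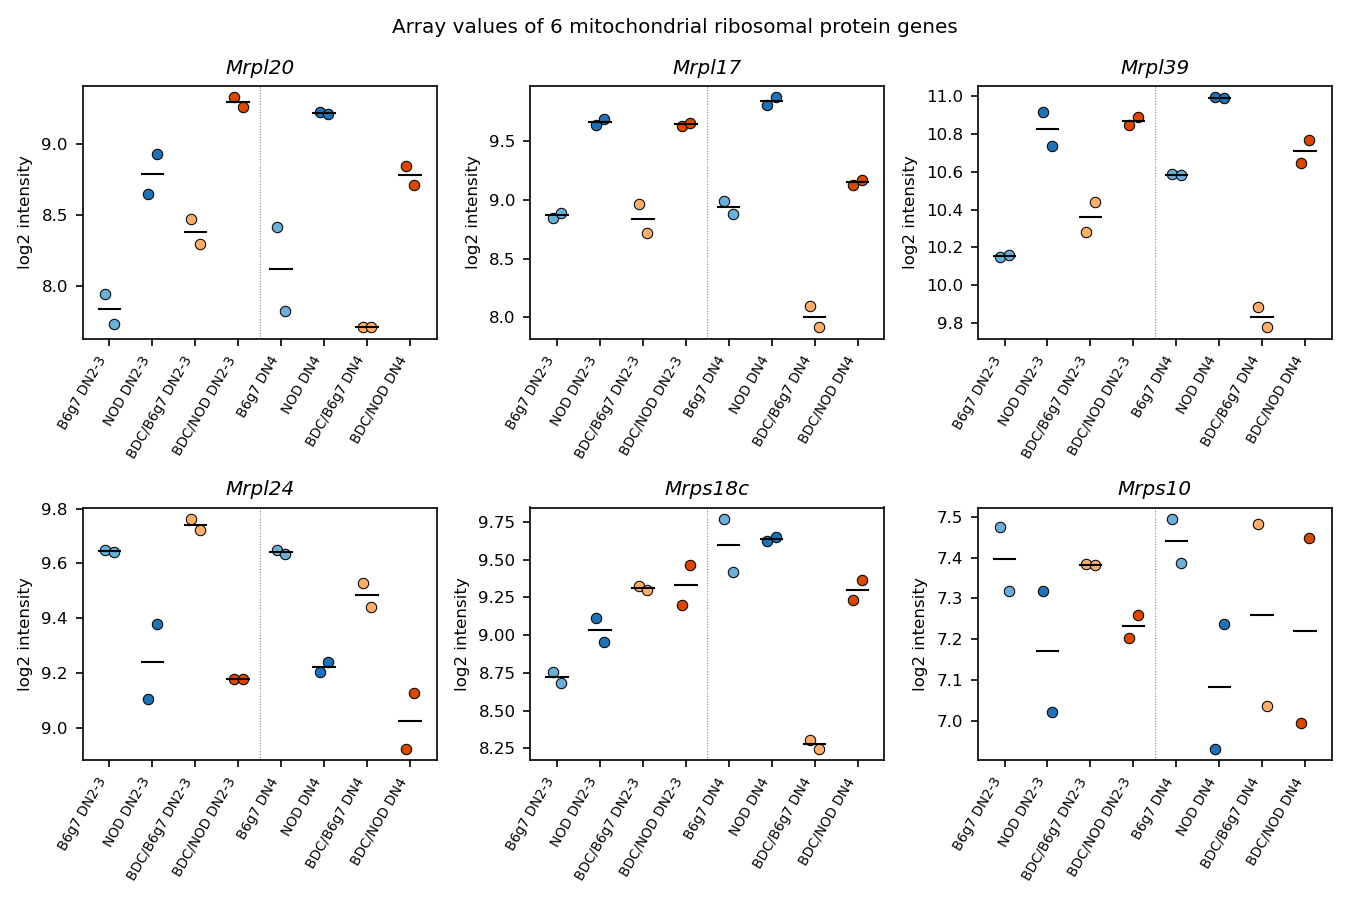
Log2 intensity of 6 genes in each array (points, 2 per group) with the group mean (bar); the dotted line separates DN2-3 from DN4 and each panel has its own scale. Mrpl20, Mrpl17 and Mrpl39 are higher and Mrpl24 lower in NOD in all 4 contexts, Mrps18c is lowest in BDC/B6g7 DN4, and Mrps10 overlaps between most groups.

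The nearest tested genes on either side of these in the GRCm38.p6 gene order gave mixed values for the average strain difference. Untested genes were skipped and distances were not measured, so a gene named as beside a member need not adjoin it. Of all genes tested 26.8% were higher in NOD on average and 14.9% lower. Beside Mrpl39, Gabpa, a subunit of the ETS factor GABP, was higher in NOD by 0.56, Atp5j, a subunit of the ATP synthase, by 0.55 and Cxadr by 0.36. D16Ertd472e was lower (-0.21). Beside Mrpl24, Rrnad1 (0.00) and Prcc (0.08) were not called, while Hdgf and Isg20l2 were higher by 0.32 and 0.40. Beside Mrpl20, Mxra8 was higher by 0.51, Atad3aos by 0.29 and Atad3a by 0.19, and Ccnl2 was at -0.01 and not called. Beside Mrpl17, Taf10 was higher by 0.18, the predicted genes Gm4759 (-1.52) and Gm8995 (-1.04) were lower, and Tpp1 was at -0.27 and not called.

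In DN4 the strain difference was larger with the transgene than without it in 21 members, against 9.20% of all genes, and smaller in none, against 10.9%. The median of this interaction was 0.31 against -0.04. The pattern was not particular to these genes. The interaction was positive and called in 25 of 78 oxidative phosphorylation genes (median 0.37) and 23 of 29 cell cycle genes (0.95). Of 57 cytosolic ribosomal genes 1 was called positive (0.14). Among the members Mrps18c (0.98 ± 0.17), Mrpl35 (0.92 ± 0.15), Mrpl50 (0.84 ± 0.20), Mrpl13 (0.76 ± 0.14) and Mrpl36 (0.73 ± 0.16) had the largest values. For Mrps18c the NOD minus B6g7 difference was 1.02 ± 0.12 in BDC DN4. The count was 11 without B6g7 DN4 replicate 1, 13 without either NOD DN4 array, 12 without BDC/NOD DN4 replicate 2 and 29 without NOD DN2-3 replicate 1. Without the 4 male arrays limma called 0 members, with 21 at an unadjusted p under 0.05 and 4 residual degrees of freedom, and all 21 members kept their sign.

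Other genes of mitochondrial translation were described by lists, whose counts stand beside 29.8% of all genes higher and 19.3% lower in DN2-3, and 28.7% higher and 30.8% lower in DN4. Other proteins of the ribosome were Dap3, Ptcd3, Gadd45gip1 and Chchd1, of which 3 of 4 were higher in DN2-3 and all 4 lower in DN4; Chchd1 was at 0.40 ± 0.10 and -1.05 ± 0.10. Of 22 assembly factors 6 were higher and 3 lower in DN2-3, shares no larger than those of all genes, and 2 were higher and 9 lower in DN4. Noa1, a GTPase of small-subunit assembly, was at 0.51 ± 0.07 and -0.87 ± 0.07, while Nsun4, a ribosomal RNA methyltransferase, was at -0.44 ± 0.09 in DN2-3 with an interaction of 1.01 ± 0.12. Of 14 translation factors 6 were higher and 3 lower in DN2-3, and 1 higher and 6 lower in DN4, with Tufm, the elongation factor that brings tRNA, at 0.64 ± 0.08 and -0.49 ± 0.08. Of 19 aminoacyl-tRNA enzymes 6 were higher and 2 lower in DN2-3 and 2 higher and 6 lower in DN4. For these enzymes the shares higher in DN2-3 and lower in DN4 were near those of all genes. Of 20 genes of mitochondrial DNA expression 9 and 3, and 2 and 14, moved in these directions, with Polg2, a subunit of the DNA polymerase, at -0.47 ± 0.10 and 0.83 ± 0.10.

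Oxidative phosphorylation subunits, the complexes that these ribosomes partly supply, gave 49 higher and 2 lower of 78 in DN2-3 (median 0.30) and 1 higher and 63 lower in DN4 (-0.50). Cytosolic ribosomal proteins gave 33 higher and 1 lower of 57 in DN2-3 (0.23), and 1 higher and 15 lower in DN4 (-0.11). Of 16 regulators of mitochondrial biogenesis 7 were higher and 1 lower in DN2-3 and 2 higher and 8 lower in DN4. C1qbp, a mitochondrial matrix protein, was at 0.46 ± 0.07 and -1.14 ± 0.07. Myc was lower in BDC at both stages (-0.52 ± 0.15 and -0.93 ± 0.15). Nrf1 was higher in DN2-3 by 0.33 ± 0.08 and at -0.11 ± 0.08 in DN4, where it was not called, and Gabpa was at 0.03 ± 0.07 and -0.46 ± 0.07.

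Genes of other kinds moved with these groups. All 29 cell cycle genes were higher in BDC than in non-transgenic DN2-3 cells (median 0.64), and 28 were lower in DN4 (-0.85). Their array medians were -1.12 and -1.10 in BDC/B6g7 DN4 and 0.50 and 0.54 in NOD DN4. Of 10 tested mature T cell genes, 8 were higher in BDC in DN2-3 and 8 in DN4, and 8 were lower in NOD than in B6g7 BDC DN4 cells. The summed intensity of the 11 on the array was 2683 to 2782 in non-transgenic DN2-3, 4125 to 5112 in BDC DN2-3, 3901 to 4224 in non-transgenic DN4, 10110 to 11720 in BDC/B6g7 DN4 and 5593 to 5690 in BDC/NOD DN4, and Cd40lg alone was not above background in any group. S1pr1, the receptor for exit from the thymus, was higher in BDC DN4 by 3.63 ± 0.09. The part of proliferation or of mature T cells in the changes of the mitochondrial ribosomal genes was not tested.

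For 8 members a second probe set was available. In DN4 the BDC minus non-transgenic difference of the second and of the kept probe set was -1.09 and -1.09 for Mrpl23, -0.52 and -0.56 for Mrpl27, -0.38 and -0.45 for Mrpl41, -0.91 and -0.82 for Mrpl51, -0.78 and -0.83 for Mrps33 and -0.90 and -0.87 for Mrps36. They were further apart for Mrpl47 (-0.32 and -1.16), where the second probe set was dim, with a mean of 6.53 against 8.37, and for Mrps5 (0.01 and -0.16). In DN2-3 the second and the kept probe set were at 0.09 and 0.30 for Mrpl27, 0.02 and 0.22 for Mrpl41, 0.03 and 0.01 for Mrpl23, 0.33 and 0.46 for Mrpl47, 0.14 and 0.21 for Mrps33, 0.21 and 0.24 for Mrps36 and 0.44 and 0.37 for Mrps5. For Mrpl51 they had opposite signs (-0.19 and 0.22).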

How the data were processed

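RNA from 16 samples was extracted with Trizol, labelled with biotin and hybridized by a standard Affymetrix protocol, per the labels. The deposited values are intensity values on a linear scale that the authors made with RMA in Affymetrix Power Tools, per the submitters' processing notes, with no version stated in the sources used here. The matrix held 25108 probe sets, of which 21157 had 1 gene symbol, 1341 several and 2610 none. After log2 transformation (no pseudocount), 19531 genes were each represented by the probe set with the highest mean. The filter required a group mean of at least 7.05 (132.9 on the linear scale), the median of the named probe sets, which left 10689 genes. The number of arrays limits the precision.

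Differences were tested with limma 3.58.1 (lmFit on 8 group means, eBayes) in R 4.3.3, two-sided, with Benjamini-Hochberg adjustment over all genes tested at 0.05, and 8 residual and 5.06 prior degrees of freedom. Transgene and stage differences were averaged over strains. All p-values printed come from this fit or its alternatives, and errors are its standard errors. The method was also run on simulated data with independent noise in each gene and the same planted change in both strains. The real genes moved together and differed by strain, and no result here rests on that run. Alternatives were no filter, the mean of all probe sets, quantile normalization again, centring, a replicate block, sex as a term, no male arrays, array weights and leaving out each array.

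Replicate deviations of DN2-3 and DN4 groups of the same strain and genotype correlated at 0.101 to 0.585 in all 4 such pairs, so the replicate numbers may pair the stages. This comes from the data; the labels state no pairing, and replicate 1 is male at both stages in the BDC groups. The stage comparisons and transgene by stage, which treat arrays as independent, were therefore also fitted with a block for strain, genotype and replicate number, an alternative chosen after seeing the data.

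The members and gene lists were chosen with earlier results of these data known. Named members were up to 10 called in each direction with the largest change, the 3 smallest changes and a list of always-described genes, with up to 4 called genes of each context list. Promoters came from RefSeq tables; Mrpl13, Mrpl15, Mrpl19, Mrpl38, Mrpl4, Mrpl54, Mrps28, Mrps34 and Mrps35 had no entry. Groups by place in the ribosome, neighbouring genes and second probe sets were chosen after values were seen.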

Additional observations from a re-analysis of the deposited data

Results flagged for a closer look

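The effect of the BDC2.5 transgene differed between DN2-3 and DN4 cells by the interaction test in 72 members, all with a negative value. Among all genes tested 31.5% were called negative and 26.3% positive. The 10 members with the largest difference were Mrpl42 (-1.94), Mrpl47 (-1.63), Mrps22 (-1.59), Mrpl36 (-1.3), Mrps18c (-1.27), Mrpl11 (-1.21), Mrpl40 (-1.18), Mrps18b (-1.18), Mrpl35 (-1.16) and Mrpl12 (-1.15), on the log2 scale.

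The strain difference in DN4 cells differed between transgenic and non-transgenic mice by the interaction test in 21 members, all with a positive value. Among all genes tested 9.20% were called positive and 10.9% negative. The count was 11 without B6g7 DN4 replicate 1. The 10 largest were Mrps18c (0.98), Mrpl35 (0.92), Mrpl50 (0.84), Mrpl13 (0.76), Mrpl36 (0.73), Mrps22 (0.73), Mrps18b (0.71), Mrps33 (0.7), Mrpl23 (0.7) and Mrpl37 (0.68).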

How the results depend on the processing

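No called member changed sign under any alternative run. Member counts called ranged, when 1 array was left out at a time, from 39 to 52 for BDC minus non-transgenic in DN2-3, 59 to 70 in DN4, 50 to 66 for DN4 minus DN2-3 in non-transgenic cells, 54 to 69 in BDC cells, 69 to 74 for transgene by stage, and 31 to 52 for NOD minus B6g7 on average. For NOD minus B6g7 they ranged from 3 to 35 in non-transgenic DN2-3, 4 to 5 in BDC DN2-3, 2 to 23 in non-transgenic DN4 and 36 to 61 in BDC DN4, and from 11 to 29 for strain by transgene in DN4. Dropping the 4 male arrays left each BDC group with a single array, assumed to vary like the other groups, and the counts were 20 for the transgene in DN2-3, 37 for the stage in BDC cells, 21 for the strain on average, 3, 2, 2 and 19 for the strain in non-transgenic DN2-3, BDC DN2-3, non-transgenic DN4 and BDC DN4, and 0 for strain by transgene in DN4 (limma; 21 members at an unadjusted p under 0.05). For the strain in non-transgenic DN2-3 the 8 calls became 5 with no filter, 5 with centring and 3 with array weights, and in non-transgenic DN4 the 7 calls became 3 with quantile normalization again, 15 with centring and 13 with array weights. Centring moved the share of higher among all calls over all genes from 60.6% to 71.5% for the transgene in DN2-3, from 74.7% to 87.4% for the strain in non-transgenic DN4 (54.5% with quantile normalization), from 47.3% to 34.8% for the strain in non-transgenic DN2-3 and from 45.7% to 32.5% for strain by transgene. Quantile normalization moved it from 64.3% to 54.3% for the strain on average and from 62.8% to 52.1% in BDC DN4. Across all groups the correlations of replicate deviations ran from -0.254 to 0.585 over 28 pairs of groups, with 12 above 0.1. They cannot settle whether replicate numbers pair the arrays across groups, and the labels state no pairing. With the replicate number as a block over all groups the transgene counts were 46 and 66 and transgene by stage 73. With the replicate block within strain and genotype, chosen after seeing the data, for which all 4 correlations were above 0.1, the counts were 63 and 69 for the stage in non-transgenic and BDC cells and 74 for transgene by stage, with all 60, 64 and 72 earlier calls kept. Over all genes the same block raised the calls from 5137 to 5764, 5460 to 6071 and 6177 to 6711 in this order of comparisons. Among the named members it added the calls of Mrpl11 (0.32) and Mrpl10 (0.25) for the stage in non-transgenic cells and of Mrpl4 (-0.29) and Mrps36 (-0.35) in BDC cells. Over single named members and alternatives, 8136 results kept direction and call, 336 lost the call and 119 gained it. With 2 arrays a group, small differences were not detectable at this precision.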
